A study of Glycine max and Glycine soja with 189 samples.

Results

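Short days (SD) and long days (LD) were compared in soybean shoots in the afternoon, at T3 (2:30 pm). The comparison takes in 42 of the 189 RNA sequencing libraries of the series, 21 grown under SD (10 h of light and 14 h of dark) and 21 grown under LD (16 h of light and 8 h of dark). They were chosen by their labels alone, as every library of these photoperiods at T3. Each photoperiod was represented by 3 biological replicates, A, B and C, of 7 genotypes. These were the cultivars Clark and Williams 82, 4 near isogenic lines (NILs) in the Clark background, and the wild soybean *Glycine soja*. By the study's list of maturity (E) loci, Clark carries the recessive *e1* and *e5* with dominant *E2*, *E3*, *E4* and *E7*. L65-3366 differs from Clark by dominant *E1*, L66-432 by recessive *e2*, L74-441 by recessive *e3*, and L92-1195 by recessive *e3* and dominant *E5*. Only *E2* is listed for Williams 82 and no allele for *G. soja*. All plants were labelled as 26 days old. The labels give the first trifoliate, while the methods describe entire shoots, cut above the cotyledon, with an age counted from germination and not from planting, so the exact tissue is uncertain, and it could not be checked against marker genes because the deposited values carry locus identifiers without gene names. No source used here says whether each photoperiod had more than 1 growth space, so the photoperiod and the place of growth cannot be told apart.

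Of the 3 sequenced time points, T1, T3 and T5, T3 is the only one at which plants of both photoperiods were in the light. The lights had been on for 7.75 h in both, and 2.25 h of light remained under SD against 8.25 h under LD. T1 lay 0.25 h before lights on in both photoperiods, and T5 lay in the dark under SD and 0.25 h before lights off under LD. Soybean is a short-day plant: long nights hasten its flowering. In soybean, the FT homologs GmFT2a and GmFT5a promote flowering, and E1, a legume-specific nuclear protein distantly related to B3-domain transcription factors, represses their genes under long days. Phytochrome A photoreceptors, among them those encoded at *E3* and *E4*, act upstream of *E1*. GIGANTEA, encoded at *E2*, works with the circadian clock, and CONSTANS in Arabidopsis links that clock with day length to switch on *FT*. Transcripts under the control of the clock and of light change over the day, so a difference at 1 clock time may be one of level or of timing, which a single time point does not separate.

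mRNA abundance was measured as RPKM, a read count scaled to the transcript's length and to the library's mapped reads. The libraries at T3 had 6.21 to 15.7 M recorded reads under SD (median 11.9 M) and 8.32 to 16.7 M under LD (median 11.1 M). Reads mapped to transcripts, recovered from the whole-read steps of low RPKM values, came to 5.46 to 14.0 M under SD and 7.31 to 14.97 M under LD. Replicates of a group differed by more than sampling noise in each of 42 pairs, where chi-square divided by its degrees of freedom was 2.09 to 29.4 (median 9.76), so none of these pairs was 1 library deposited under both names. Pairs across groups were not compared in this way. Marker transcripts of Williams 82 (26) and *G. soja* (223), chosen on the libraries of T1 and T5, went against the label in 0 of the 42 libraries. Clark and its NILs had too few such markers for this check. The first principal component held 51.9% of the variance and separated all SD from all LD libraries, but the 7 LD libraries of replicate A lay nearer the SD libraries, at −70.4 to −35.0 (median −49.5), than those of replicates B (median −85.1) and C (median −81.7), though 1 end of the range of C, −64.9, reached into theirs. The SD libraries lay between 51.4 and 94.2. What set the LD replicate A libraries apart was not tested, and several results, though not all that involve them, are also given without them.

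The afternoon transcriptome differed widely between the photoperiods, with many small differences and a smaller set of large ones. In these bulk samples, fewer cells of a type and less RNA per cell cannot be told apart. After a filter on low values (mean of at least 0.1 RPKM over the 42 libraries), 60957 transcripts of 43388 loci were tested with limma on log2(RPKM + 1), with SD minus LD averaged over the 7 genotypes and p-values adjusted over all transcripts by the Benjamini-Hochberg method. Of these, 39188 (64.3%) passed an adjusted p of 0.05, 12536 (20.6%) higher and 26652 (43.7%) lower under SD. The median difference over all transcripts was −0.10 on the log2 scale, and the balance between higher and lower rested on the scaling. With a median-of-ratios factor per library, 35456 transcripts passed, 17172 higher and 18284 lower, and the median difference was −0.01. Higher transcripts thus made up 32.0% of the calls on the deposited scale and 48.4% after this scaling. Averaging over genotypes treats libraries of 1 replicate letter as independent, although those of 1 photoperiod deviated from their group means together (mean r = 0.232 between genotypes). With the 3 letter means of each photoperiod as the only replicates, 27260 transcripts passed.

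Large differences were mostly in 1 direction. Among the called transcripts, 2935 were at least 2-fold higher and 1428 at least 2-fold lower under SD, 822 and 170 differed at least 4-fold, 242 and 33 at least 8-fold, and 60 and 5 at least 16-fold. At 32-fold or more, 9 were higher and 1 was lower. A fold here is a difference in log2(RPKM + 1), which understates the change of low transcripts. Under the median-of-ratios scaling the excess of higher transcripts at 2-fold and the same sign in every genotype was larger, with 3345 against 1025.

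**Figure D1:**
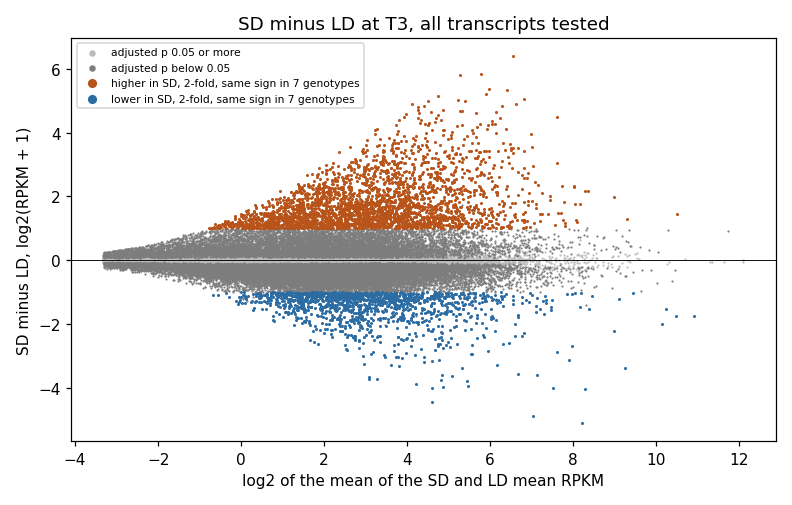
SD minus LD at T3 in log2(RPKM + 1) for the 60957 transcripts tested (vertical axis) against the log2 of the mean of the SD and LD mean RPKM (horizontal axis). Grey points are all other transcripts. Coloured points are the 2904 transcripts higher and the 1410 lower under SD by at least 2-fold with the same sign in all 7 genotypes. The higher ones reach 6.40 and the lower ones −5.08.

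Transcripts that passed the test, differed at least 2-fold and had the same sign in all 7 genotypes are called uniform here. There were 2904 uniform higher transcripts (4.76% of those tested) from 2368 loci and 1410 uniform lower transcripts (2.31%) from 1132 loci, and 0 loci held both kinds. Only 49 of the 4363 transcripts past the threshold and 2-fold failed the condition on the sign. The median difference was 1.52 for the uniform higher and −1.27 for the uniform lower transcripts. With a pseudocount of 0.1 RPKM in place of 1, 4711 and 3228 transcripts met the rule, and without the LD replicate A libraries 3311 and 1594 did, 4122 of them shared with the 4314 named first.

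The uniform transcripts took up different shares of the measured mRNA in the 2 photoperiods. The uniform higher ones made up 14.4% ± 1.27 of the summed RPKM under SD (12.1 to 16.7%) and 3.80% ± 0.868 under LD (2.95 to 5.63%; ± standard deviation, n = 21 each). The uniform lower ones made up 2.68% ± 0.310 under SD and 8.52% ± 0.687 under LD. Libraries of the 2 photoperiods did not overlap in either share, which follows from how the transcripts were chosen. Under LD, the share of the uniform higher transcripts was 3.88 to 5.63% in replicate A against 2.95 to 3.82% in replicates B and C, the same libraries that stood apart on the first principal component.

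Uniform transcripts occurred at all levels and on all chromosomes. Among transcripts with a mean of 10 to 100 RPKM, 10.9% were uniform higher and 4.59% uniform lower, against 4.72% and 2.54% of those with 1 to 10 RPKM. Below 1 RPKM the pseudocount leaves little room for a 2-fold difference, and 0.363% and 0.0626% met the rule. By the chromosome number in the locus identifier, 3.44% (chromosome 5) to 6.09% (chromosome 13) of the tested transcripts were uniform higher on the 20 chromosomes, and 1.40% (chromosome 5) to 2.97% (chromosome 19) were uniform lower. Of 10825 loci with 2 or more tested transcripts, 5 had transcripts called in both directions, though transcripts of a locus may share reads.

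Complete separation of the 2 groups of 21 libraries was less common than a call. For 1761 transcripts (2.89%) the lowest SD library was above the highest LD library, and for 1288 (2.11%) the highest SD library was below the lowest LD library. Few transcripts were at the floor of detection in 1 photoperiod alone. In reads, 24 transcripts had at most 3 reads in every LD library and more than 3 in every SD library, and 2 showed the opposite.

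The direction was read in each genotype. Within single genotypes, with 3 libraries against 3 and a spread shared by the whole fit, 14096 transcripts passed in Clark (23.1%), 13067 in Williams 82 (21.4%), 12869 in L65-3366 (21.1%), 13477 in L66-432 (22.1%), 11341 in L74-441 (18.6%), 13805 in L92-1195 (22.6%) and 15664 in *G. soja* (25.7%). More transcripts were lower than higher under SD in each genotype, and more were at least 2-fold higher than at least 2-fold lower, from 2584 against 1320 in L74-441 to 3175 against 2001 in *G. soja*. The sign was the same in all 7 genotypes for 30614 of the 39188 called transcripts (78.1%). The counts within genotypes turned on the replicates: they were 4235 (L74-441) to 5900 (L66-432) without replicate B, 5373 (Clark) to 12032 (*G. soja*) without replicate C, and 10985 (L74-441) to 15809 (Clark) without replicate A.

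Large differences were also read in a genotype left out of the uniform rule. Transcripts were chosen by this rule in 6 genotypes and read in the remaining one. The filter on low values still took in all 42 libraries. The genotype left out was not independent of the others. Same-letter libraries of the same photoperiod deviated together (mean r = 0.232 between genotypes), and Clark and its NILs share a background. In every genotype the photoperiod and the place of growth cannot be told apart. Whether the agreement came from the photoperiod or from shared growth or harvest was not tested. Of the transcripts chosen as higher, 98.98% (Williams 82) to 100% (L92-1195) were higher in the genotype left out, and of those chosen as lower, 98.26% (*G. soja*) to 100% were lower. Over all transcripts tested, 80.86 to 85.46% had the same sign. At least 2-fold differences in the same direction were found in the genotype left out for 80.6% (*G. soja*) to 91.5% (L92-1195) of the higher and 67.8% (*G. soja*) to 85.6% (L92-1195) of the lower transcripts, against 7.03 to 8.95% of all tested. *G. soja* gave the lowest 2-fold shares, and the medians of its differences, 1.59 and −1.23, lay near those of the other 6 genotypes (1.54 and −1.28).

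Differences between the genotypes in SD minus LD were few by comparison. The limma F-test of genotype by photoperiod passed for 138 of 60957 transcripts (0.226%). An unadjusted p below 0.05 was found for 2698, fewer than would be awaited at that threshold if no transcript differed between genotypes. In 100 of the 138, *G. soja* lay farthest from the mean of the others, in 22 Williams 82, in 12 L66-432, and in the remaining lines 0 to 2. How often each genotype lay farthest over all transcripts tested was not counted. Without *G. soja* 25 transcripts passed. The mean log2 difference was of mixed sign over the genotypes in 57 of the 138, while 78.1% of the transcripts called on average had the same sign in all 7. With 1 letter left out of every group 21 to 97 transcripts passed, so a missing call does not show that genotypes responded alike.

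The 2 FT homologs stood among the largest rises. FT proteins move from leaf to shoot apex as the flowering signal. Under SD, *GmFT2a* (Glyma16g26660.1, chromosome 16) had 19.2 to 57.4 RPKM (median 34.1, mean 34.3 ± 8.70), against 0 to 2.30 RPKM under LD (median 0.0956, mean 0.205 ± 0.493; ± standard deviation, n = 21 each). In SD minus LD this was 4.89 on the log2 scale (SE 0.112, adjusted p = 1.22e-26, limma), rank 13 of all transcripts, and the 2 photoperiods did not overlap. All 7 genotypes passed on their own, from 4.43 in L74-441 to 5.12 in *G. soja*.

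*GmFT2a* under LD was near the limit of the depth. The 21 LD libraries held 40 reads of it in all, 8 libraries held none, and a count of 3 reads corresponds to 0.312 RPKM in a library of median depth. A single library, L74-441 replicate B, held 18 of the 40 reads. Read numbers of this and other genes rest on estimated transcript lengths and can be too low by a whole factor. The SD mean was 167 times the LD mean with this library and 341 times without it, where the LD mean was 0.1005 RPKM.

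*GmFT5a* (Glyma16g04830.1, chromosome 16) had 13.9 to 26.0 RPKM under SD (median 18.99, mean 19.6 ± 3.12), against 0 to 4.26 RPKM under LD (median 0.361, mean 0.585 ± 0.901; n = 21 each). Its difference was 3.81 (SE 0.0997, adjusted p = 3.32e-25, limma), and again no LD library reached the lowest SD library. The difference was 3.00 in L74-441 and 3.66 to 4.21 in the other genotypes. L74-441 replicate B was once more the highest LD library, with 4.26 RPKM against at most 1.03 RPKM in the other 20, and the ratio of means was 33.5 with it and 48.8 without it. This library lay among the other LD libraries of replicate B on the first principal component (−78.8). Why it differed in both FT homologs was not tested.

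**Figure D2:**
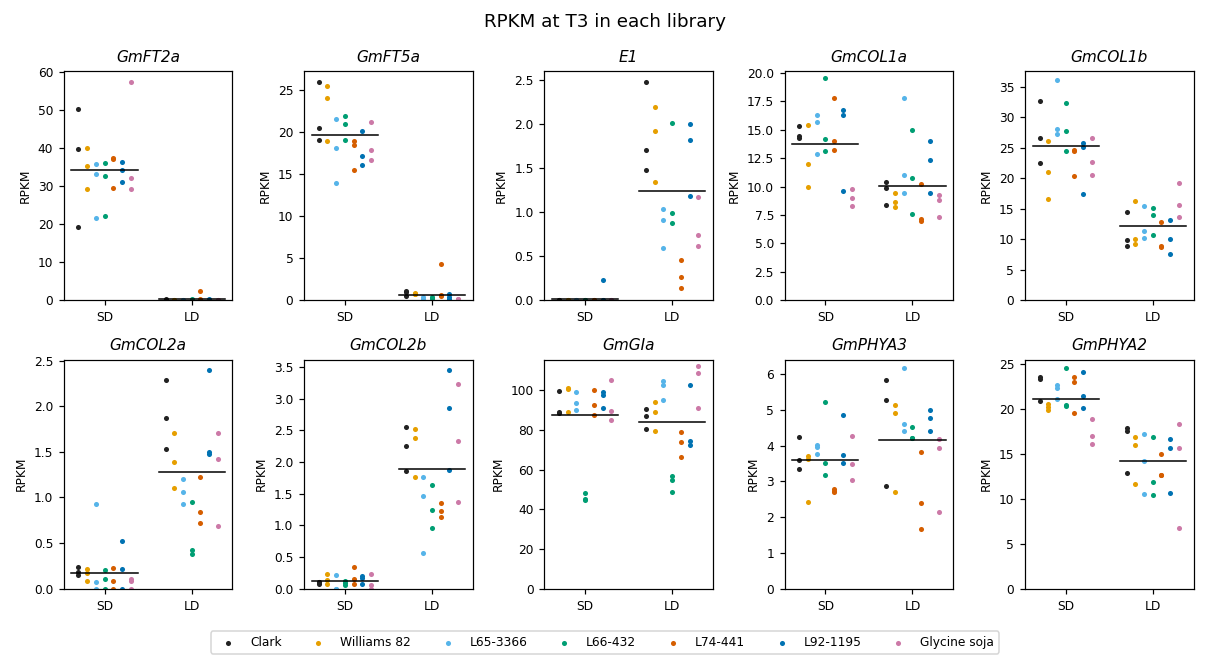
RPKM at T3 of the 10 named genes in each of the 21 SD and 21 LD libraries, coloured by genotype, with a line at each mean. *GmFT2a* and *GmFT5a* are at 13.9 RPKM or more in every SD library and at 4.26 RPKM or less in every LD library. E1 is at 0 in 20 of 21 SD libraries. The photoperiods do not overlap for *GmFT2a*, *GmFT5a* and *GmCOL2b*, and they overlap for all other genes shown.

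*E1*, the repressor of both FT homologs, was measured in the opposite direction. Under SD its transcript (Glyma06g23026.1, chromosome 6) was listed at 0 in 20 of 21 libraries, and L92-1195 replicate B, with 0.225 RPKM, rested on 2 reads. Under LD it had 0.136 to 2.48 RPKM (median 1.17, mean 1.23 ± 0.668, n = 21), or 1 to 21 reads a library. Summed over the libraries, E1 had 2 reads under SD against 230 under LD. Per mapped read the level under LD was thus 116 times that under SD (95% exact interval 31.7 to 962, counting error only). On the log2 scale SD minus LD was −1.08 (SE 0.0557, adjusted p = 2.02e-17, limma), a value that the pseudocount of 1 RPKM holds down, and −3.43 with a pseudocount of 0.1.

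The LD level of E1 varied over the genotypes. Replicates A, B and C under LD had 1.48, 1.71 and 2.48 RPKM in Clark, 2.20, 1.35 and 1.92 RPKM in Williams 82, and 2.00, 1.18 and 1.81 RPKM in L92-1195. They had 0.878, 0.992 and 2.01 RPKM in L66-432, 1.04, 0.915 and 0.596 RPKM in L65-3366, and 0.735, 0.611 and 1.17 RPKM in *G. soja*. L74-441 was lowest, with 0.264, 0.136 and 0.452 RPKM, and its 3 LD libraries were below all 18 of the others. Its difference of −0.35 was the only one that did not pass within a genotype (adjusted p = 0.094, limma), while Clark had the largest (−1.52).

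E1 was the only one of the 10 named genes for which the genotype by photoperiod test passed (adjusted p = 0.0187, limma). With the SD libraries at or near 0, this is a comparison of LD levels that rest on 1 to 21 reads. The call was lost with each letter left out (adjusted p = 0.351 to 0.668), with a pseudocount of 0.1 (adjusted p = 0.288), without *G. soja* (0.0974), without L74-441 replicate B under LD (0.0681) and without the LD replicate A libraries (0.0512).

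**Figure D3:**
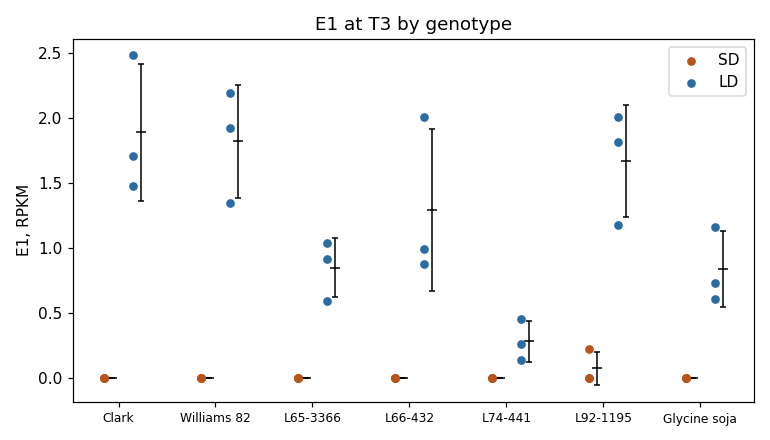
RPKM of E1 at T3 in each library by genotype, SD at the left and LD at the right of each pair, with the mean and standard deviation of 3 libraries beside the points. LD values run from 0.136 to 0.452 RPKM in L74-441 and from 0.596 to 2.48 RPKM in the other genotypes, and 1 SD library is above 0.

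The CONSTANS homologs read here, which are only part of the soybean family, split by pair. *GmCOL1a* and *GmCOL1b* rose under SD and *GmCOL2a* and *GmCOL2b* fell. *GmCOL1a* (Glyma08g28370.1, chromosome 8) had 8.27 to 19.6 RPKM under SD (median 14.2) against 6.92 to 17.8 RPKM under LD (median 9.43), groups that overlapped widely, with a difference of 0.41 (SE 0.0812, adjusted p = 5.09e-05, limma). *GmCOL1b* (Glyma18g51320.1, chromosome 18) had 16.7 to 36.2 RPKM under SD (median 25.2) against 7.49 to 19.3 RPKM under LD (median 11.3), with a difference of 1.01 (SE 0.0838, adjusted p = 3.27e-12). Both were higher under SD in all 7 genotypes by their means, but 2 genotypes passed for *GmCOL1a* and 6 for *GmCOL1b*. *G. soja* had the smallest difference for either gene (0.08 and 0.50).

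*GmCOL2a* (Glyma13g07030.1, chromosome 13) had 0 to 0.933 RPKM under SD (median 0.110) against 0.385 to 2.39 RPKM under LD (median 1.23), a difference of −0.94 (SE 0.0723, adjusted p = 6.17e-13, limma). *GmCOL2b* (Glyma19g05170.1, chromosome 19) had 0 to 0.348 RPKM under SD (median 0.112) against 0.566 to 3.44 RPKM under LD (median 1.76), a difference of −1.32 (SE 0.0670, adjusted p = 1.31e-17). The 2 photoperiods did not overlap for *GmCOL2b* and overlapped for *GmCOL2a*, where L65-3366 replicate C (0.933 RPKM) was the highest SD library. Both genes were faint at this depth. *GmCOL2a* had 41 reads over the SD libraries and 310 over the LD libraries, and *GmCOL2b* had 32 and 500, with 3 reads corresponding to 0.257 and 0.237 RPKM in a library of median depth. The members of a pair are near copies of each other and how reads that fit more than 1 transcript were counted is not given, so their division within a pair is uncertain.

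The genes at *E2*, *E3* and *E4* had small differences at T3, and *GmPHYA2* alone passed. *GmGIa* (*E2*, Glyma10g36600.3, chromosome 10) had 44.9 to 105 RPKM under SD (median 90.8) against 48.7 to 112 RPKM under LD (median 86.8), with a difference of 0.05 (SE 0.0455, adjusted p = 0.327, limma). The lowest 3 libraries in each photoperiod were those of L66-432, the line with the recessive *e2*, at 44.9 to 48.2 RPKM under SD and 48.7 to 56.9 RPKM under LD, while all other libraries had 66.1 RPKM or more. After median-of-ratios scaling the difference was 0.20 and passed (adjusted p = 1.20e-04), while under quantile normalization it was −0.03 (adjusted p = 0.577), so the direction for *GmGIa* rests on the scaling. L74-441 was the only genotype to pass on its own (0.35, adjusted p = 0.0389).

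*GmPHYA3* (*E3*, Glyma19g41210.1, chromosome 19) had 2.41 to 5.23 RPKM under SD (median 3.60) against 1.68 to 6.18 RPKM under LD (median 4.40), a difference of −0.13 (SE 0.0814, adjusted p = 0.151, limma). The LD replicate A libraries were low (median 2.87 RPKM, against 4.78 in B and 4.61 in C). Without them the difference was −0.28 and passed (adjusted p = 4.66e-04). L74-441, with the recessive *e3*, had 2.71 to 2.79 RPKM under SD and 1.68 to 3.82 RPKM under LD, while L92-1195, listed with the same recessive allele, had 3.51 to 4.86 and 4.41 to 4.99 RPKM. *GmPHYA2* (*E4*, Glyma20g22160.1, chromosome 20) rose to 16.2 to 24.6 RPKM under SD (median 20.9), against 6.72 to 18.3 RPKM under LD (median 14.96), a difference of 0.57 (SE 0.0826, adjusted p = 4.25e-07). Its LD replicate A libraries were also low (median 10.6 RPKM, against 15.6 in B and 16.9 in C), and without them its difference was 0.39 (adjusted p = 1.12e-07). It was higher under SD in 7 genotypes by its means and passed in 4.

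The 2 largest rises and the largest falls belonged to loci that the sources used here do not name. Glyma09g27180.2 (chromosome 9) had 99.9 to 278 RPKM under SD (median 180) against 0.290 to 2.50 RPKM under LD (median 1.10), a difference of 6.40 (SE 0.129, adjusted p = 4.25e-28, limma). Glyma07g33511.1 (chromosome 7) had 53.0 to 179 RPKM under SD (median 108) against 0.220 to 3.79 RPKM under LD (median 0.603), a difference of 5.84 (SE 0.156, adjusted p = 4.82e-25). Neither overlapped between the photoperiods, and their differences over the 7 genotypes were 6.11 to 6.76 and 5.63 to 6.20.

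The largest falls were both of locus Glyma19g27530 (chromosome 19), whose transcripts may share reads and count as 1 locus. Glyma19g27530.1 had 6.88 to 36.7 RPKM under SD (median 14.3) against 232 to 1089 RPKM under LD (median 596), a difference of −5.08 (SE 0.174, adjusted p = 3.44e-22, limma). Glyma19g27530.2 had 3.27 to 14.4 RPKM under SD (median 7.01) against 98.7 to 469 RPKM under LD (median 264), a difference of −4.88 (SE 0.172, adjusted p = 8.55e-22). In the LD replicate A libraries Glyma19g27530.1 was at 232 to 627 RPKM, against 492 to 1089 RPKM in B and C.

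SD minus LD at T3 was tested against the mean of SD minus LD at T1 and T5. The fit took in the SD and LD libraries of all 3 time points. The contrast shows whether T3 differed from this mean, not whether a difference was confined to T3 or present there. This contrast passed for 39154 of 61237 transcripts (63.9%), 11421 more toward SD at T3 and 27733 more toward LD. The split again followed the scaling, since the median over all transcripts was −0.14 on the deposited scale and −0.02 after median-of-ratios scaling, where 16238 and 17548 passed. As a description only, 2444 of the 2904 uniform higher transcripts (84.2%) and 1077 of the 1410 uniform lower ones (76.4%) had a larger difference at T3 than at T1 and at T5 by both tests, against 47.6% of all called higher and 51.8% of all called lower transcripts. These sets were chosen for a large difference at T3, which favours that outcome.

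Of the 2904 uniform higher transcripts, 330 were also at least 2-fold higher under SD at T1 (11.4%), 292 at T5 (10.1%) and 130 at both (4.48%). Over all transcripts tested, 2.77% were 2-fold higher at T1 and 1.62% at T5, and 4.04% and 1.9% were 2-fold lower. In the reverse direction, 726 were at least 2-fold lower under SD at T1 (25.0%) and 350 were at least 2-fold lower at T5 (12.1%). Of the 1410 uniform lower transcripts, 207 were at least 2-fold lower at T1 (14.7%), 153 at T5 (10.9%) and 57 at both (4.04%), and 136 were at least 2-fold higher under SD at T1 (9.65%). At neither T1 nor T5 did 1480 of the higher (51.0%) and 909 of the lower transcripts (64.5%) reach a 2-fold difference in either direction. This share was not counted over all transcripts tested, but it is higher there, given the small 2-fold shares above. The 2 shares thus do not mark the uniform transcripts as confined to T3.

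**Figure D4:**
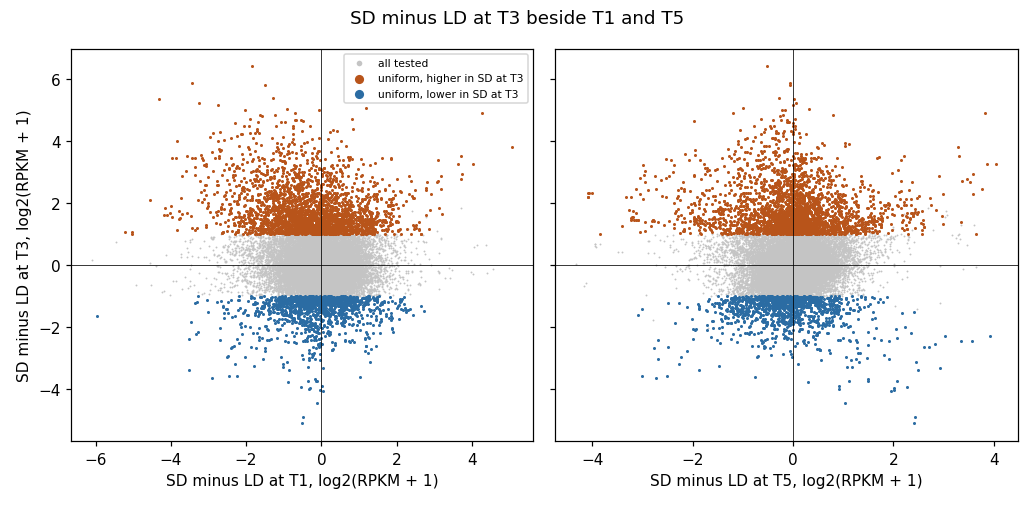
SD minus LD at T3 (vertical axis) against SD minus LD at T1 (left) and at T5 (right), all in log2(RPKM + 1), for all transcripts tested, with the uniform higher and uniform lower transcripts coloured. Of the 2904 higher transcripts, 726 lie at −1 or below at T1 and 330 at 1 or above among those called.

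The time point of the highest mean level was then read in each photoperiod. Of the 2904 uniform higher transcripts, 77.9% were highest at T3 under SD and 73.9% were highest at T1 under LD (23.1% and 19.7% of all tested), and 1792 (61.7%) combined the 2, against 10.3% of all tested transcripts. Of the 1410 uniform lower transcripts, 72.4% were highest at T5 under SD and 51.1% were highest at T3 under LD (57.6% and 35.3% of all tested), and 568 (40.3%) combined the 2, against 24.3% of all tested. These shares describe means over 21 libraries at 3 clock times 8 h apart. Since the transcripts were chosen on their levels at T3, a highest mean at T3 was favoured in the photoperiod where they were higher. In the other photoperiod a highest mean away from T3 was favoured, and so were the combined shares.

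Glyma09g27180.2 was high at T3 under SD: its median was 1.06, 180 and 0.447 RPKM at T1, T3 and T5 under SD, and 6.17, 1.10 and 0.847 RPKM under LD. Its difference at T3 exceeded the mean of T1 and T5 by 7.57 on the log2 scale (adjusted p = 3.47e-61, limma). Glyma07g33511.1 was similar, with medians of 0.224, 108 and 0.0811 RPKM under SD and 11.1, 0.603 and 0.107 RPKM under LD, an excess of 7.59. Both were lower under SD at T1, with differences of −1.84 and −3.44. They were named for the largest rises at T3, so the choice favours a large contrast with T1 and T5 and a small p-value.

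Glyma19g27530.1 was high in both photoperiods but at different time points. Its medians at T1, T3 and T5 were 4.30, 14.3 and 214 RPKM under SD and 6.50, 596 and 35.9 RPKM under LD. The difference at T3 minus the mean of T1 and T5 was −6.03 (adjusted p = 6.38e-47, limma). This transcript was named for the largest fall at T3, which favours that outcome.

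*GmFT2a* and *GmFT5a* were higher under SD at all 3 time points, with different time courses. *GmFT2a* had medians of 23.4, 34.1 and 16.5 RPKM at T1, T3 and T5 under SD and 0.185, 0.0956 and 0.107 RPKM under LD. Its difference was largest at T3, by 0.62 over T1 (adjusted p = 4.08e-04, limma) and by 1.07 over T5 (adjusted p = 7.79e-09). *GmFT5a* had medians of 51.9, 18.99 and 13.7 RPKM under SD and 0.461, 0.361 and 0.386 RPKM under LD, and its difference at T3 minus that at T1 was −1.27 (adjusted p = 7.55e-12) and minus that at T5 was 0.53 (adjusted p = 0.00204).

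E1 was lower under SD at T1 and T3 (−1.05 and −1.08), while at T5 it was at 0 in the median library of both photoperiods. The test of T3 against T1 did not pass (−0.03, adjusted p = 0.769, limma) and that of T3 against T5 did (−1.01, adjusted p = 1.87e-17). *GmGIa* had a median of 0.903 RPKM under SD against 42.2 RPKM under LD at T1, a difference of −4.55, and T3 differed from T1 by 4.599 (adjusted p = 1.29e-58), while the test against T5 did not pass (−0.20, adjusted p = 0.0875).

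For *GmCOL1a* and *GmCOL1b*, T3 was the time point, of the 3 sampled, with the lowest median under LD and the smallest difference. *GmCOL1b* had medians of 646, 25.2 and 10.1 RPKM at T1, T3 and T5 under SD and 128, 11.3 and 162 RPKM under LD, and its difference at T3 minus that at T1 was −1.36 (adjusted p = 6.90e-18, limma) and minus that at T5 was 4.86 (adjusted p = 1.08e-55). *GmCOL2a* and *GmCOL2b* had their lowest SD medians (0.110 and 0.112 RPKM) and their highest LD medians (1.23 and 1.76 RPKM) at T3, and the difference at T3 minus the mean of T1 and T5 was −1.26 and −1.19 (adjusted p = 6.95e-23 and 4.84e-20). *GmPHYA3* was higher under SD at T1 by 1.04, unlike at T3 (T3 minus T1 −1.17, adjusted p = 8.69e-17).

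**Figure D5:**
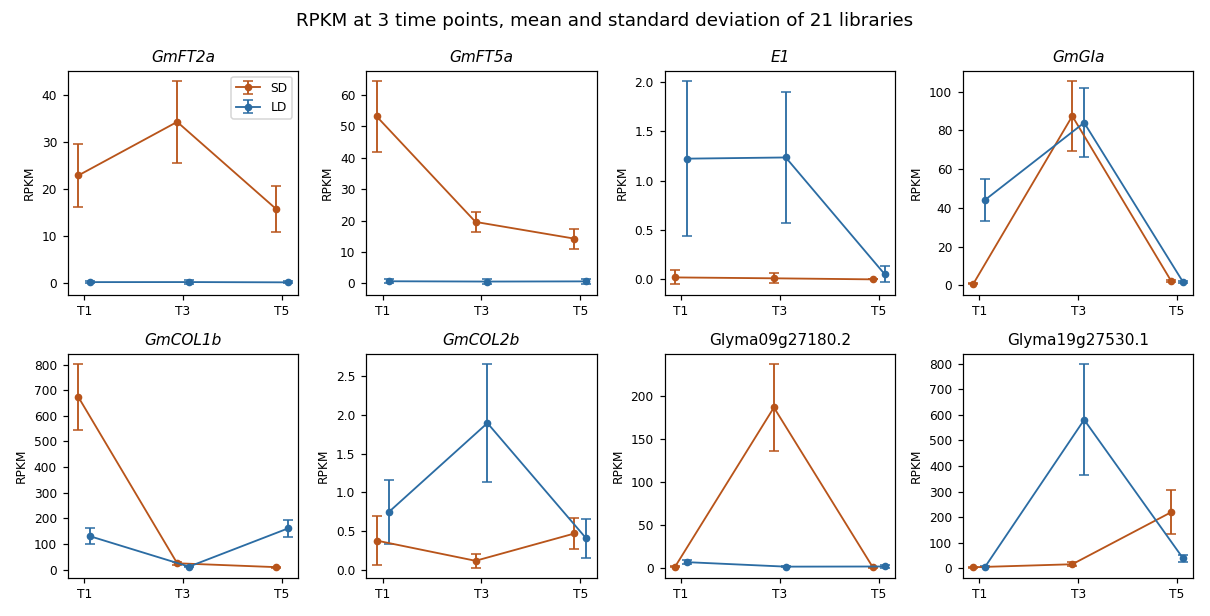
Mean RPKM of 8 of the named transcripts at T1, T3 and T5 under SD and LD, with bars for the standard deviation of 21 libraries and lines that only join the 3 time points. Glyma09g27180.2 reaches a mean of 186 RPKM at T3 under SD, Glyma19g27530.1 a mean of 581 RPKM at T3 under LD, and *GmGIa* 87.4 and 84.0 RPKM at T3 under SD and LD.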

How the data were processed

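RNA was sequenced from 3 biological replicates per group. Reads were filtered and inspected by the authors (FastX, FastQC) and placed on the Williams 82 transcripts by Bowtie (version not given in the sources used here). The authors deposited 1 RPKM value per transcript and library, from counts of an in-house program, without pooling. How reads that fit more than 1 transcript were counted is not given. Photoperiod, genotype, time point and replicate letter came from the labels. Of the 73320 transcripts, 1 with infinite values was left out. The deposited values hold 63 columns of the shift experiment that were not used.

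RPKM values were not rescaled. limma 3.58.1 in R 4.3.3 was fitted to log2(RPKM + 1) with a coefficient for each of 14 groups (42 for the 3 time points), eBayes with trend, a minimum mean of 0.1 RPKM and Benjamini-Hochberg adjustment, without a replicate block. Depth came from whole-read steps: 99.9986% of transcripts above 0 in at least 3 of 126 libraries gave whole reads in every library (within 0.005 reads). Each length was taken as the smallest that gave whole reads in every library, so printed read counts can be too low, and 3-read floors too high, by a whole factor. A count test of SD against LD over the transcripts was not run for this reason. The interval for E1 and the chi-square values between replicates do rest on the recovered reads. Depth recovery and limma steps were tested on simulated data. There, lengths were found for 98.0% of transcripts, and 87.9% of the lengths found were right. Intervals and floors (3 reads) cover counting error only. P-values measure the spread between these libraries. Named are all transcripts of the 10 loci that the paper's text or primer table pairs with a name, and the 2 largest rises and falls among uniform transcripts. The members and lists were chosen with earlier results of these data known. None of the locus identifiers matched the reference gene table, so no other gene is named and no sequence is shown. Alternatives were no filter, a stricter one (mean of at least 1 RPKM), a pseudocount of 0.1 RPKM, median-of-ratios and quantile scaling, eBayes without trend, each letter left out, no *G. soja*, sums per locus, replicate blocks, 4 other models of the averaged difference, and, added after seeing the data, fits without L74-441 replicate B under LD or without LD replicate A, and the uniform rule read in a genotype left out.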

Additional observations from a re-analysis of the deposited data

Results flagged for a closer look

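Effects that differed between genotypes or time points by a test of the difference itself are listed here, and groups of 3 or 21 libraries were not searched for single outlying libraries. SD minus LD at T3 differed between genotypes for 138 transcripts, among them E1 (adjusted p = 0.0187, limma), with L74-441 lowest under LD. SD minus LD at T3 differed from the mean of T1 and T5 for 39154 transcripts.

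Of the 14 named transcripts, 13 were among these, where 63.9% of all transcripts tested passed. The 2 largest rises and 2 largest falls were named for their difference at T3, which favours that outcome, and both falls are of 1 locus. The contrast of T3 with the mean of T1 and T5 on the log2 scale was 7.57 for Glyma09g27180.2, 7.59 for Glyma07g33511.1, 2.20 for *GmGIa*, 1.75 for *GmCOL1b*, 1.04 for *GmCOL1a* and 0.85 for *GmFT2a*. It was −0.37 for *GmFT5a*, −0.52 for E1, −0.80 for *GmPHYA3*, −1.19 for *GmCOL2b*, −1.26 for *GmCOL2a*, −6.03 for Glyma19g27530.1 and −5.85 for Glyma19g27530.2. The call for *GmFT5a* was lost after median-of-ratios scaling (−0.22, adjusted p = 0.161, limma), with a pseudocount of 0.1 RPKM (−0.20, adjusted p = 0.555) and without replicate A (−0.31, adjusted p = 0.0948). *GmPHYA2* did not pass (0.06, adjusted p = 0.569, limma). The mean of T1 and T5 joins opposite differences for *GmCOL1a* and *GmCOL1b*, which were higher under SD at T1 and lower at T5. For *GmGIa*, SD minus LD was −4.55 at T1 and 0.05 at T3, where it did not pass. For E1, the test of T3 against T1 did not pass (−0.03, adjusted p = 0.769, limma).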

How the results depend on the processing

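Over the alternatives tried, 202 values that answer a comparison stayed within 1.5 times the reported count and 22 did not. These values are not independent, since totals are counted beside their higher and lower parts. Some alternatives, such as eBayes without trend, leave the fitted differences as they were, so the uniform counts had little room to move. Uniform transcripts numbered 7939 with a pseudocount of 0.1 RPKM (4711 higher and 3228 lower), against 4314 with 1 RPKM. Transcripts that differed between genotypes numbered 41 with that pseudocount, 57 with a minimum mean of 1 RPKM, 25 without *G. soja* and 273 with a fixed replicate block, against 138. Leaving out replicate A, B or C in turn, L74-441 replicate B under LD, or replicate A under LD gave 21 to 147 of these, with 22 without replicate B and 21 without replicate C. Within genotypes these fits called 4615 to 16870 transcripts in Clark, 5376 to 14942 in Williams 82, 5697 to 13981 in L65-3366, 5900 to 13971 in L66-432, 4235 to 12137 in L74-441, 5815 to 14038 in L92-1195 and 5114 to 16502 in *G. soja*. The averaged comparison had 31933 without replicate B and 37754 without replicate A. The cause was not tested.

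The replicate letters were not taken to pair SD with LD plants, a choice that the values do not settle. Between SD and LD libraries of a genotype, deviations from group means correlated at a mean r of 0.113 for the same letter. Of these 21 pairs, 12 were over 0.1. For other letters the mean r was −0.0537, a value partly tied to the former by the use of group means. On a later principal component (6.08% of the variance), the replicate A library was lowest in its group in every genotype under both photoperiods. Whether a letter stood for growth or harvest shared by SD and LD plants was not tested. With the letter as a replicate block within each photoperiod, 40684 transcripts passed as a fixed block and 32739 as a random block, against 39188. *GmPHYA3* passed with the fixed block (−0.13, adjusted p = 0.0419, limma) and without replicate A (−0.35, adjusted p = 1.19e-04). Over the alternatives, the largest adjusted p of SD minus LD at T3 (limma) was 1.50e-05 for *GmFT2a*, 1.07e-05 for *GmFT5a* and 1.99e-04 for E1. It was 0.0273 for *GmCOL1a*, 4.79e-04 for *GmCOL1b*, 1.13e-04 for *GmCOL2a*, 3.55e-05 for *GmCOL2b* and 0.0251 for *GmPHYA2*. For single genes 455 values kept their side of the threshold, 5 gained the call and 10 lost it. *GmFT5a* at T3 against T1 and T5 lost it under median-of-ratios scaling (−0.22, adjusted p = 0.161), a pseudocount of 0.1 (−0.20, adjusted p = 0.555) and without replicate A (−0.31, adjusted p = 0.0948), and *GmPHYA2* gained it under that scaling (0.26, adjusted p = 0.00777). The E1 and *GmCOL2a* means lay under the minimum of 1 RPKM, so that alternative gave them no value. Depth limits the LD levels of the FT homologs and the SD levels of E1, *GmCOL2a* and *GmCOL2b*.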
